A study of Mus musculus with 4 samples.

Results

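The genes described here encode cyclins and kinases that act on RNA polymerase II at its release from pausing or later in elongation: Ccnk, Cdk12, Cdk13, Ccnt1, Ccnt2 and Cdk9. They were chosen by symbol, and Ccnk headed the choice because it had the lowest Caprin-1 over IgG ratio among named genes in shCerS4 cells. All 6 had values, in 10 of the 24393 transcript rows, and made up 6 of 12967 gene symbols. All 6 reached a mean of 5 CPM over the 4 libraries, as did 10283 genes in all; CPM is a gene's reads scaled to a fixed library total.

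The libraries came from 4T1, a metastatic mammary carcinoma line of BALB/c mice, grown in culture with puromycin. The cells stably expressed either SCR, the control (shSCR), or a CerS4 shRNA aimed at the gene of a ceramide synthase (shCerS4). RNA was precipitated from each with antibodies to Caprin-1, a cytoplasmic protein that binds mRNA, or with IgG as the background control. The question was how Caprin-1, in complex with PD-L1, binds mRNA in cells with altered lipid metabolism. Each cell line gave 1 IgG and 1 Caprin-1 library, 4 in all, so the differences below have no replicate check and none was tested. Each bracket after a log2 ratio is its 95% counting interval, which covers counting error between these libraries only.

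In the cell, Cdk9 pairs with cyclin T1 or cyclin T2 to form P-TEFb, the kinase that phosphorylates the pausing factors and the C-terminal domain (CTD) of RNA polymerase II and so releases the paused enzyme. Cdk12 and Cdk13 are large, related kinases that share cyclin K as their partner. They phosphorylate the CTD later in elongation, and in human cells the expression of many long genes, DNA repair genes among them, has been described as dependent on CDK12. P-TEFb is held inactive in the 7SK ribonucleoprotein by the HEXIM proteins, and the super elongation complex brings it to genes.

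The libraries held an estimated 19.7 to 27.0 M reads. All 6 epithelial markers had values, with a summed level between 3951 and 9657 CPM. Of the markers of other cells, none of 4 immune and none of 2 endothelial genes had values here, and the 2 fibroblast genes Col1a1 and Pdgfra summed to between 20.1 and 64.0 CPM. Values for Cers4 were not analysed here, so the knockdown was not checked in these libraries. In these bulk precipitates fewer cells expressing a gene and less RNA per cell cannot be told apart. Scaling was to library totals, so every ratio is relative to the other genes of the same library.

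**Figure D1:**
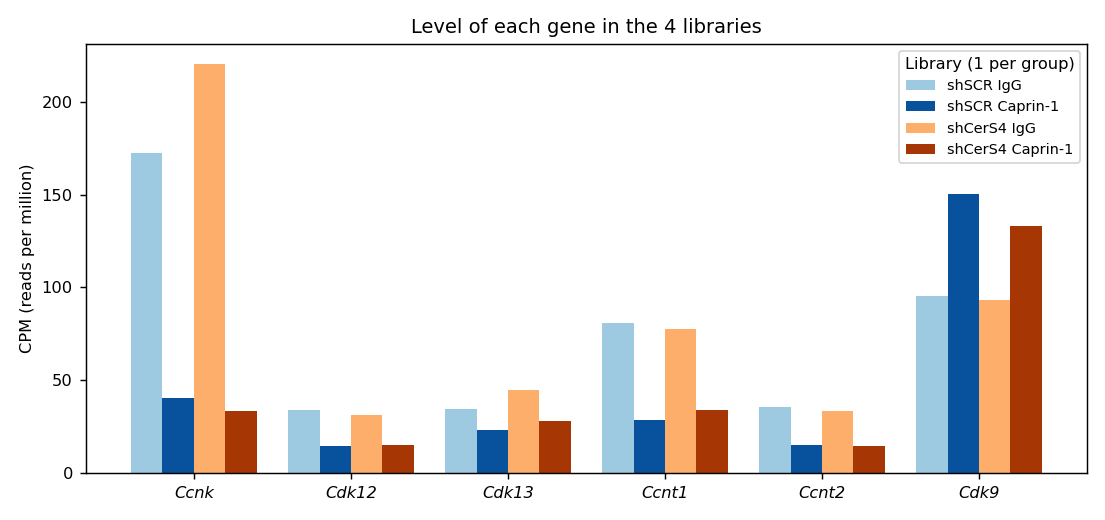
Level of each gene in CPM (linear axis from 0) in the 4 libraries, 1 bar per library and no error bar because each group is 1 library. Both Caprin-1 bars of Ccnk lie far below its IgG bars (40.4 and 33.6 against 173 and 220 CPM), whereas both Caprin-1 bars of Cdk9 lie above its IgG bars (151 and 133 against 95.2 and 93.4 CPM).

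Ccnk, the gene for cyclin K (chromosome 12, 108179308 to 108203359, build GRCm38), had a single transcript row. It stood at 173 CPM (3422 reads) in shSCR IgG, 40.4 CPM (1091 reads) in shSCR Caprin-1, 220 CPM (4334 reads) in shCerS4 IgG and 33.6 CPM (828 reads) in shCerS4 Caprin-1. The IgG libraries were the 2 high ones in both cell lines, and the shCerS4 pair was spread wider than the shSCR pair at both ends. The Caprin-1 over IgG log2 ratio was −2.71 [−2.82, −2.61] in shCerS4 cells, the ratio that chose the gene. There it had the lowest rank of all 10283 genes, and the next of the 7610 genes that reached a mean of 20 CPM and had no predicted-gene symbol were Nfat5 at −2.35 and Tead1 at −2.19. The shSCR libraries were not used by the rule that chose Ccnk, although earlier results of these data were known. In the shSCR libraries the log2 ratio of Ccnk was −2.10 [−2.20, −2.00], rank 50 of 10283 from the lowest, or 4.27-fold lower with Caprin-1 than with IgG.

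Cdk12 (chromosome 11, 98202433 to 98281101) and Cdk13 (chromosome 13, 17711676 to 17805212), the kinases that bind cyclin K, were also lower with Caprin-1 than with IgG in both cell lines. Cdk12 stood at 33.9 CPM in shSCR IgG, 14.6 in shSCR Caprin-1, 31.2 in shCerS4 IgG and 14.8 in shCerS4 Caprin-1. Its log2 ratios of Caprin-1 to IgG were −1.22 [−1.40, −1.04] in shSCR and −1.07 [−1.26, −0.88] in shCerS4 cells. The 2 IgG values lay close together, as did the 2 Caprin-1 values. Cdk13 stood at 34.4, 23.1, 44.9 and 27.9 CPM in the same order of libraries. Its log2 ratios were −0.58 [−0.74, −0.42] and −0.69 [−0.83, −0.54], under 2-fold in both lines. Cdk12 and Cdk13 are related in sequence, and how reads that match both were assigned was not stated.

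Ccnt1 (chromosome 15, 98538690 to 98567736) and Ccnt2 (chromosome 1, 127774164 to 127804837) encode the alternative cyclins of P-TEFb. Ccnt1 stood at 81.1 CPM in shSCR IgG, 28.4 in shSCR Caprin-1, 77.8 in shCerS4 IgG and 33.8 in shCerS4 Caprin-1. That made its Caprin-1 over IgG log2 ratio −1.51 [−1.64, −1.39] in shSCR and −1.20 [−1.33, −1.08] in shCerS4 cells, the second lowest of the 6 genes in each. Ccnt2 stood at 35.5, 15.3, 33.4 and 14.8 CPM, with log2 ratios of −1.21 [−1.39, −1.04] and −1.18 [−1.37, −0.99]. For both cyclins each IgG library was more than 2-fold above the Caprin-1 library of its cell line.

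Cdk9 (chromosome 2, 32705782 to 32712784), the kinase of P-TEFb, differed from the other genes in direction. It stood at 95.2 CPM (1888 reads) in shSCR IgG, 151 CPM (4069 reads) in shSCR Caprin-1, 93.4 CPM (1838 reads) in shCerS4 IgG and 133 CPM (3283 reads) in shCerS4 Caprin-1. The Caprin-1 libraries were the 2 high ones. Its log2 ratios of Caprin-1 to IgG were 0.66 [0.58, 0.74] and 0.51 [0.43, 0.59], under 2-fold, at percentiles 91.5 and 88.3 of all tested genes.

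Across the 6 genes, 4 were lower past 2-fold with Caprin-1 (a ratio of at least 2-fold with an interval that excludes 0) in shSCR cells, where 13% of the 10283 tested genes were, and 4 in shCerS4 cells, where 8.02% were. In each line these were Ccnk, Cdk12, Ccnt1 and Ccnt2. No member was higher past 2-fold, against 1.69% and 0.934% of tested genes. The median of the 6 log2 ratios was −1.22 in shSCR and −1.12 in shCerS4 cells, and that of all tested genes was −0.13 and −0.11. The members were chosen with earlier results of these data known, so both counts are a description. The shCerS4 count also belongs to the contrast that chose Ccnk. Under upper-quartile, trimmed-mean and median-of-ratios scaling Cdk12 was below 2-fold in shCerS4 cells, which left 3 genes. An interval wholly below 0 was found for 5 of the 6 genes in both lines (48.9% of tested genes in shSCR and 47.2% in shCerS4 cells) and one wholly above 0 for Cdk9 (34.2% and 32.6%). The order in shSCR cells ran Ccnk, Ccnt1, Cdk12, Ccnt2, Cdk13, Cdk9 from the lowest ratio. The intervals of Cdk12 and Ccnt2 overlapped almost wholly there and those of Ccnt1 and Cdk12 met at their edges, and in shCerS4 cells those of Ccnt1, Ccnt2 and Cdk12 overlapped.

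**Figure D2:**
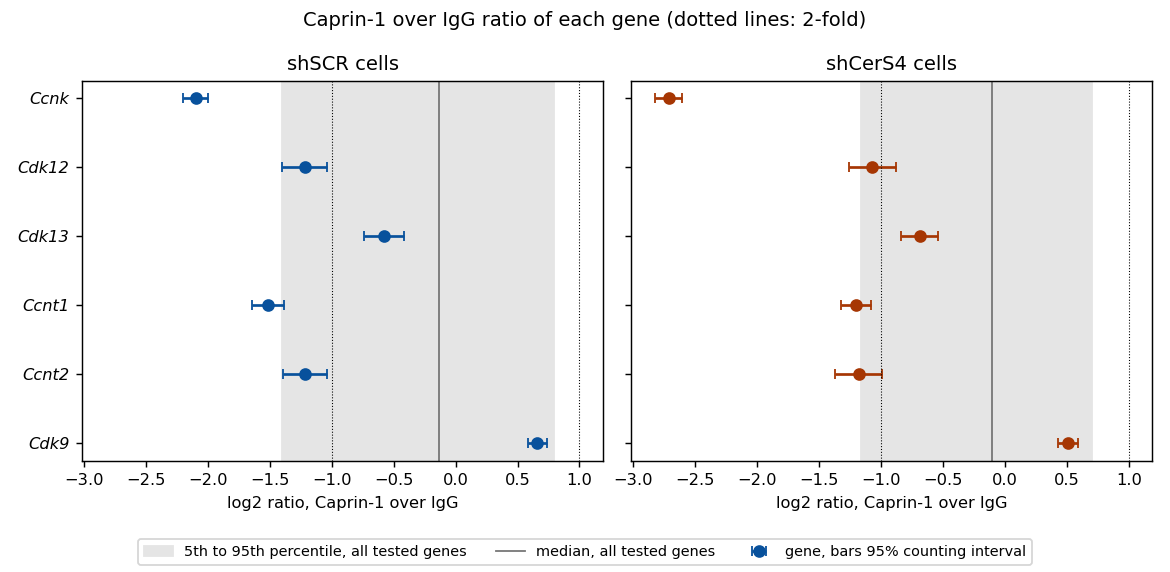
Caprin-1 over IgG log2 ratio of each gene in shSCR cells (left, blue) and shCerS4 cells (right, brown), with 95% counting intervals. The grey band spans the 5th to the 95th percentile of the 10283 tested genes, the grey line is their median and dotted lines mark 2-fold; Ccnk (−2.10 and −2.71) and Ccnt1 (−1.51 and −1.20) lie left of the band in both panels and Ccnt2 (−1.18) in the right one, and Cdk9 alone lies right of the median, at 0.66 and 0.51.

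Within each complex the mRNAs of the partners therefore had unequal Caprin-1 over IgG ratios. A difference between the ratios of 2 genes does not depend on how the libraries are scaled. The Caprin-1 over IgG log2 ratio of Cdk9 exceeded that of Ccnt1 by 2.17 [2.03, 2.32] in shSCR cells and by 1.71 [1.56, 1.86] in shCerS4 cells. It exceeded that of Ccnt2 by 1.87 [1.68, 2.06] and 1.69 [1.49, 1.89]. Each of these corresponds to more than 3-fold between the ratio of the kinase mRNA and that of its cyclin mRNA.

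In the cyclin K complexes the cyclin had the lower ratio, although not the lower level. In the shSCR and shCerS4 Caprin-1 libraries Ccnk stood at 40.4 and 33.6 CPM. Cdk12 stood there at 14.6 and 14.8 CPM, and Cdk13 at 23.1 and 27.9 CPM. The Caprin-1 over IgG log2 ratio of Cdk12 exceeded that of Ccnk by 0.88 [0.67, 1.08] in shSCR and 1.64 [1.43, 1.86] in shCerS4 cells. The ratio of Cdk13 exceeded that of Ccnk by 1.52 [1.33, 1.70] and 2.03 [1.85, 2.20]. Between the kinases, Cdk12 lay below Cdk13 by −0.64 [−0.88, −0.40] and −0.38 [−0.62, −0.15]. Between the T cyclins, Ccnt1 minus Ccnt2 was −0.30 [−0.51, −0.09] in shSCR cells and −0.02 [−0.24, 0.20] in shCerS4 cells, an interval that holds 0. The values in shCerS4 cells that involve Ccnk come from the contrast that chose it.

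Genomic span was set beside these ratios, because over all genes the Caprin-1 over IgG ratio was lower in longer genes. In shSCR cells the median log2 ratio was 0.39 in the shortest of 10 equal groups by span and −0.79 in the longest, and in shCerS4 cells it was 0.27 and −0.61. Cdk9 spans 7.0 kb, in a group of 1028 genes whose medians were 0.28 and 0.22. Ccnk, Ccnt1 and Ccnt2 span 24.1, 29.0 and 30.7 kb and share a group of 1028 genes whose medians were −0.17 and −0.14. In that group 2 genes had a lower ratio than Ccnk in shSCR cells, while in shCerS4 cells the choice of Ccnk fixed its place as the lowest. Ccnt1 had 21 and 36 genes below it and Ccnt2 had 57 and 38. Cdk12 (78.7 kb) and Cdk13 (93.5 kb) share a group of 1028 genes with medians of −0.71 and −0.55. There Cdk12 lay at percentiles 21.5 and 14.0, and Cdk13 at percentiles 57.4 and 39.9. The part of span in the members' ratios was not tested, and transcript length was not used here.

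The annotation has 1 protein-coding gene that overlaps a member, Setd3, which encodes a histidine methyltransferase of actin and shares 38 bases with Ccnk. No source says whether the counting used strand, so reads from the shared bases cannot be assigned. Setd3 stood at 237 and 232 CPM in the IgG and Caprin-1 libraries of shSCR cells and at 280 and 245 CPM in those of shCerS4 cells. Its log2 ratios of Caprin-1 to IgG, −0.03 and −0.20, lacked the gap seen in Ccnk.

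The next comparison was that of shCerS4 with shSCR cells in each kind of precipitate, which the submitters name as the primary one for Caprin-1. None of the 6 genes was past 2-fold in either direction in the Caprin-1 precipitates, where 4.95% of tested genes were lower and 6.25% higher past 2-fold. None was past 2-fold in the IgG precipitates either, against 5.34% lower and 5.69% higher. The log2 ratios of the 6 genes ran from −0.27 to 0.27 with Caprin-1 and from −0.12 to 0.38 with IgG. The median of all tested genes was 0.15 and 0.10.

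Ccnk had ratios of opposite sign in the 2 precipitates, a description, since both ratios hold shCerS4 libraries that chose the gene. Its shCerS4 over shSCR log2 ratio was −0.27 [−0.40, −0.13] with Caprin-1 and 0.35 [0.29, 0.42] with IgG. Cdk13 was higher in shCerS4 cells in both, at 0.27 [0.11, 0.43] and 0.38 [0.24, 0.53]. Ccnt1 was higher with Caprin-1, at 0.25 [0.11, 0.39], and stood at −0.06 [−0.16, 0.04] with IgG. Cdk9 was lower with Caprin-1, at −0.18 [−0.24, −0.11], and stood at −0.03 [−0.12, 0.07] with IgG.

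The remaining members had intervals that held 0 in both precipitates. Cdk12 stood at 0.03 [−0.18, 0.23] with Caprin-1, a value below 0 under each of the 4 other scalings, and at −0.12 [−0.28, 0.04] with IgG. Ccnt2 stood at −0.05 [−0.26, 0.15] and −0.09 [−0.24, 0.07]. With an interval below 0 there were thus 2 of 6 genes in the Caprin-1 precipitates (30.2% of tested genes) and none in the IgG precipitates (32.2%). Above 0 there were 2 in each (51% and 46.9%).

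**Figure D3:**
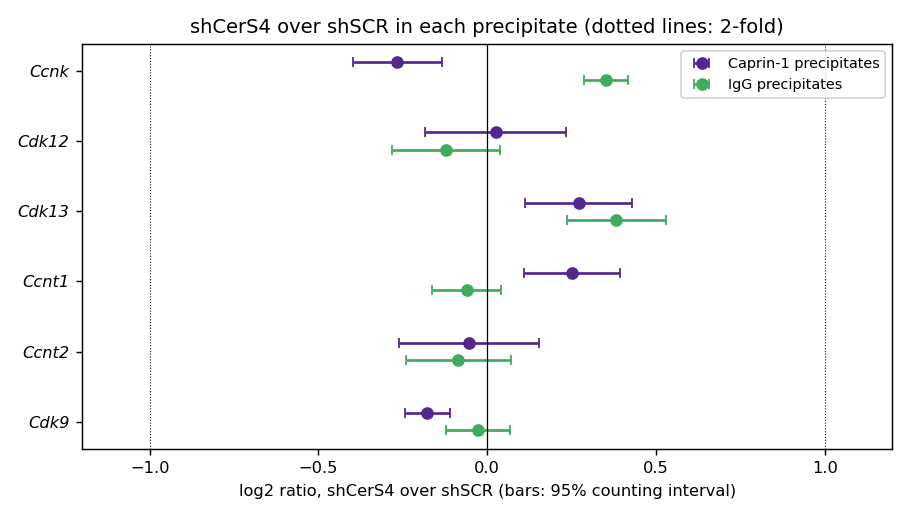
Log2 ratio of shCerS4 over shSCR for each gene in Caprin-1 (purple) and IgG (green) precipitates, with 95% counting intervals; dotted lines mark 2-fold. All points lie within 2-fold, and Ccnk is the gene whose points lie on opposite sides of 0 with intervals that exclude it, at −0.27 and 0.35, both of which use libraries that chose the gene.

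The Caprin-1 over IgG ratio itself was then compared between the cell lines. No member differed past 2-fold, where 0.35% of tested genes were lower and 0.632% higher in shCerS4 cells. The Ccnk ratio was lower in shCerS4 cells by −0.62 [−0.76, −0.47] on the log2 scale, or 1.53-fold, at percentile 2.28 of all genes, and the same count of intervals put 2 members below 0 (20.9% of tested genes) and 1 above it (29.4%). This difference holds the libraries that chose the gene and is a description. Ccnt1 stood at 0.31 [0.14, 0.48] as a gene total and at −0.14 [−0.39, 0.11] by its most abundant row alone. Cdk9 stood at −0.15 [−0.26, −0.04], while Cdk12 at 0.15 [−0.11, 0.41], Cdk13 at −0.11 [−0.32, 0.10] and Ccnt2 at 0.03 [−0.22, 0.29] had intervals that held 0.

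Ccnk, Ccnt2 and Cdk9 had 1 transcript row each, and Ccnt1, Cdk13 and Cdk12 had 2, 2 and 3. The rows carry no transcript name, so they are numbered here from the highest mean. Reads shared by transcripts were divided among rows before deposit, so a row's value is less certain than its gene's.

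In Ccnt1 the more abundant row differed between the IgG libraries. Row 1 stood at 35.4 CPM in shSCR IgG, 11.9 in shSCR Caprin-1, 55.9 in shCerS4 IgG and 17.0 in shCerS4 Caprin-1. Row 2 stood at 45.7, 16.5, 21.9 and 16.8 CPM. Row 1 thus held 43.7% [41.2, 46.1] of the gene in shSCR IgG and 71.8% [69.5, 74.1] in shCerS4 IgG, against 41.8% [38.2, 45.3] and 50.2% [46.7, 53.6] in the Caprin-1 libraries of the same lines (exact binomial intervals, counting error only). The shCerS4 IgG library stood apart from the other 3.

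In the IgG precipitates, row 1 had a shCerS4 over shSCR log2 ratio of 0.66 [0.52, 0.80] and row 2 of −1.06 [−1.23, −0.89], past 2-fold as were 8.85% of the 14414 transcript rows that reached a mean of 5 CPM. The gene total hid this, with its IgG ratio of −0.06. With Caprin-1 the rows stood at 0.52 [0.30, 0.73] and 0.03 [−0.17, 0.22]. Row 2 was lower with Caprin-1 than with IgG by −1.46 [−1.63, −1.30] in shSCR cells and by −0.38 [−0.58, −0.18] in shCerS4 cells, a difference of 1.08 [0.83, 1.34] that was past 2-fold as in 6.79% of rows. Row 1 had the larger gap in both lines, at −1.58 [−1.77, −1.38] and −1.72 [−1.88, −1.55].

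The rows of Cdk12 differed in their Caprin-1 over IgG ratio. Row 1 stood at 27.4 and 10.0 CPM with IgG and Caprin-1 in shSCR cells and at 22.3 and 8.43 CPM in shCerS4 cells, with log2 ratios of −1.45 [−1.67, −1.24] and −1.40 [−1.65, −1.16]. Row 2 stood at 5.91 and 4.19 CPM and at 6.68 and 4.91 CPM, with −0.49 [−0.88, −0.11] and −0.44 [−0.81, −0.08]. Row 1 of Cdk12 was lower past 2-fold with Caprin-1 in both lines, as were row 1 of Ccnt1 in both and row 2 of Ccnt1 in shSCR cells, among 16.8% of rows in shSCR and 12.4% in shCerS4 cells. Row 3 of Cdk12, at 0.671 and 0.367 CPM in shSCR and 2.14 and 1.50 CPM in shCerS4 cells, had a mean below 5 CPM and was higher in shCerS4 cells with both antibodies, by 1.98 [0.99, 3.21] with Caprin-1 and 1.64 [0.76, 2.68] with IgG. In Cdk13 both rows were lower with Caprin-1 in both lines. In shSCR and shCerS4 cells row 1 had log2 ratios of −0.31 [−0.52, −0.09] and −0.68 [−0.87, −0.49], and row 2 of −0.90 [−1.14, −0.66] and −0.70 [−0.92, −0.48].

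**Figure D4:**
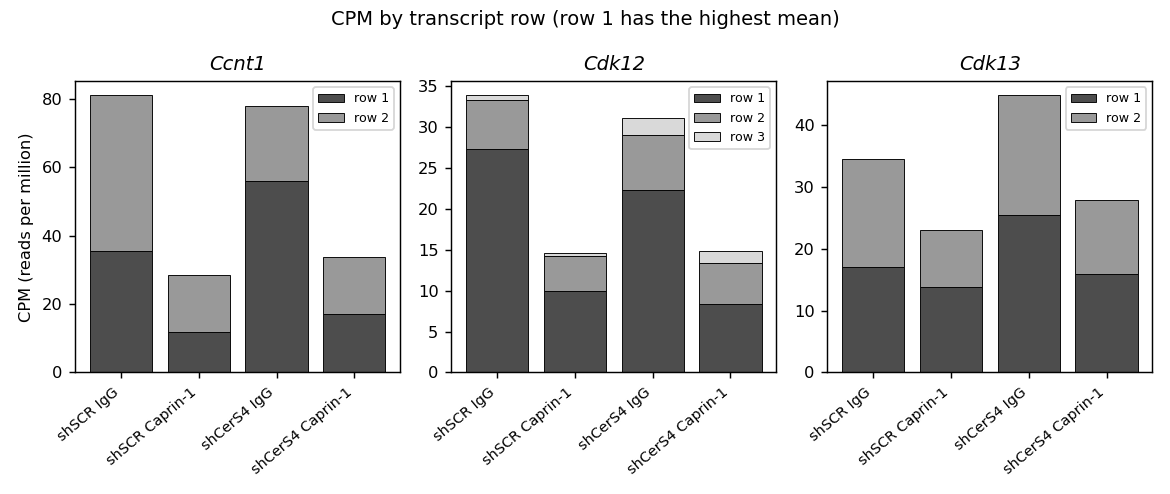
CPM of each transcript row of Ccnt1, Cdk12 and Cdk13 in the 4 libraries, stacked to the gene's total (linear axes from 0, 1 library per bar). In Ccnt1, row 1 takes 71.8% of the shCerS4 IgG bar and between 41.8% and 50.2% of the other 3.

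Related genes were described from 7 lists, which cover the transcription machinery and DNA repair genes described as dependent on CDK12 in human cells. The lists were chosen with earlier results of these data known, so their counts are a description. In the lists 70 genes had a mean of at least 5 CPM. With Caprin-1 over IgG, 10 of the 70 were lower past 2-fold in shSCR cells (13% of all tested genes) and 4 in shCerS4 cells (8.02%). None was higher (1.69% and 0.934%). These shares are near those of all genes. The DNA repair list held 4 of the lower genes in shSCR cells and none in shCerS4 cells. The same 13% and 8.02% apply to the Caprin-1 over IgG counts of the single lists below. The median log2 ratios of the 70 were −0.13 and −0.14, against −1.22 and −1.12 for the 6 cyclins and kinases.

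Among regulators of P-TEFb, the 7SK ribonucleoprotein genes, none of 4 was past 2-fold with Caprin-1 in either line. They lay between −0.11 (Hexim1) and 0.59 (Larp7, which encodes a protein that binds the 7SK RNA) in shSCR cells and between −0.39 (Hexim1) and 0.37 (Hexim2) in shCerS4 cells. The median of the list was 0.32 and 0.12. With the most abundant row per gene, where the 5 CPM filter was applied to that row, the median was 0.07 and −0.04. These are the values of Mepce, the middle gene of Hexim1, Larp7 and Mepce, so that median leaves out Hexim2. In the super elongation complex 2 of 8 tested genes were lower past 2-fold in each line, the scaffold genes Aff4 (−1.55 and −1.02) and Aff1 (−1.17 and −1.17). Aff4 in shCerS4 cells was under 2-fold in all 4 other scalings, and Aff1 in shSCR cells under median-of-ratios and upper-quartile scaling. The median of this list was −0.64 and −0.57, and its highest gene was the elongation factor gene Ell3 at 0.47 and 0.43.

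Polr2a, which encodes the largest subunit of RNA polymerase II and carries the CTD, had the lowest ratio of its list, at −1.35 [−1.45, −1.26] and −1.51 [−1.63, −1.39]. In CPM it stood at 127 with IgG and 49.7 with Caprin-1 in shSCR cells, and at 95.2 and 33.4 in shCerS4 cells. It was the only 1 of 13 subunit genes past 2-fold, although under the 4 other scalings between 1 and 4 subunit genes were higher past 2-fold in shSCR cells. The list's median was 0.29 and 0.19, with the small subunit genes Polr2j at 0.94 and 0.63 and Polr2g at 0.87 and 0.83. The most abundant, Polr2m, stood at −0.20 and −0.12.

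Among pausing and elongation factors 1 of 17 was lower past 2-fold in shSCR cells, the histone chaperone gene Supt6 at −1.06 [−1.15, −0.97] and under 2-fold in all 4 other scalings, and none in shCerS4 cells, where the PAF1 complex gene Rtf1 was lowest at −0.87. The most abundant, Ssrp1 of the FACT complex, stood at 0.11 and 0.08, and the highest were Supt4a in shSCR cells (0.76) and Wdr61 in shCerS4 cells (0.64). The median was −0.02 in shSCR cells, where it was above 0 under all 4 other scalings, and −0.16 in shCerS4 cells. The other transcription and splicing kinases and cyclins had 1 of 11 lower past 2-fold in shSCR cells, the Mediator kinase gene Cdk19 at −1.24 [−1.35, −1.13], and none in shCerS4 cells, where Cdk19 was again lowest at −0.91. Mnat1, which encodes an assembly factor of the CDK7 kinase, was the highest in shSCR cells at 0.74, and Cdk10 the highest in shCerS4 cells at 0.62. The median of these was −0.09 and −0.05, and above 0 in both lines under trimmed-mean, median-of-ratios or upper-quartile scaling. Of 7 CTD phosphatase genes Ctdspl2 was lower past 2-fold in both lines, at −1.33 [−1.44, −1.23] and −1.01 [−1.13, −0.88], a call lost in shCerS4 cells under all 4 other scalings, and the median was −0.19 and −0.24.

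**Figure D5:**
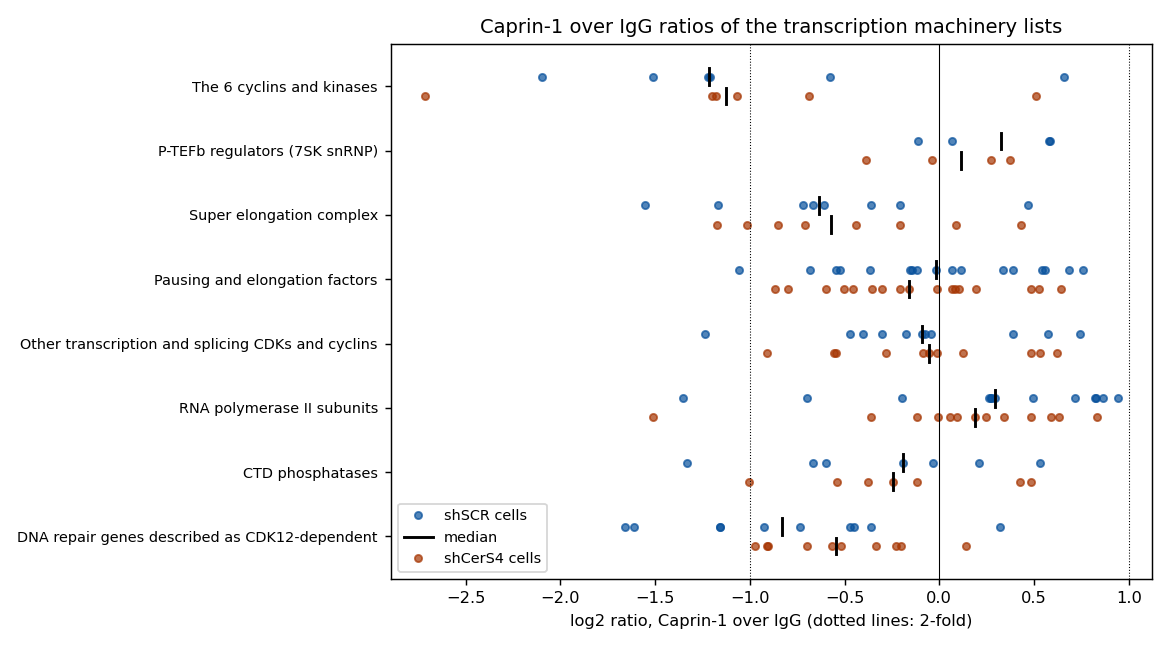
Caprin-1 over IgG log2 ratio of each tested gene in the 6 cyclins and kinases and in 7 lists of related genes, in shSCR (blue) and shCerS4 (brown) cells, with the median of each as a black bar and dotted lines at 2-fold. The cyclins and kinases have medians of −1.22 and −1.12, and the medians of the other lists lie between −0.83 and 0.32.

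Between the cell lines, 8 of the 70 list genes were lower past 2-fold with shCerS4 in the Caprin-1 precipitates (4.95% of tested genes). There 1 was higher (6.25%), and in the IgG precipitates 7 were lower (5.34%) and none higher (5.69%). Since the lists were chosen with earlier results of these data known, these counts are a description. The P-TEFb inhibitor genes Hexim1 and Hexim2 were among the lower ones. Hexim1 stood at 156 CPM in shSCR IgG, 144 in shSCR Caprin-1, 49.8 in shCerS4 IgG and 38.1 in shCerS4 Caprin-1. Its shCerS4 over shSCR log2 ratio was −1.92 [−2.03, −1.82] with Caprin-1 and −1.64 [−1.75, −1.54] with IgG. Hexim2 stood at 9.68, 14.5, 3.41 and 4.42 CPM, with log2 ratios of −1.71 and −1.50. Mepce, which encodes the capping enzyme of the 7SK RNA, was the highest of that list at −0.04 and 0.07. The median of the 4 was −1.09 and −0.83. With the most abundant row per gene, where the 5 CPM filter was applied to that row, the median was −0.47 and −0.15. These are the values of Larp7, the middle gene of Hexim1, Larp7 and Mepce, so that median leaves out Hexim2. Cdk9, Ccnt1 and Ccnt2, whose products the Hexim proteins hold, were within 2-fold with both antibodies. A link between the Hexim values and P-TEFb was not tested, and the libraries do not measure protein.

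DNA repair genes described as dependent on CDK12 in human cells held 5 of the lower genes. These were Chek1, the checkpoint kinase gene (−2.31 with Caprin-1 and −2.33 with IgG), Fancd2 (−1.96 and −2.21) and Fanci (−1.92 and −2.09) of the Fanconi anaemia pathway, Brca1 (−1.92 and −2.55) and the helicase gene Blm (−1.04 and −1.26). The 1 higher gene was Atr, another checkpoint kinase gene, at 1.08 [0.82, 1.34] with Caprin-1 and 0.33 [0.14, 0.51] with IgG. Its Caprin-1 value was under 2-fold in upper-quartile, trimmed-mean and median-of-ratios scaling. The median of the 10 genes was −0.73 and −0.95. Cdk12 and Cdk13 themselves were within 2-fold in both precipitates. A link between these kinases and the repair genes was not tested, and the libraries do not measure protein or kinase activity.

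With Caprin-1 over IgG, 4 of these 10 genes were lower past 2-fold in shSCR cells, where 13% of tested genes were. These were Atr at −1.66 [−1.91, −1.41], Atm at −1.61, Brca1 at −1.16 and Fancd2 at −1.16. None was lower past 2-fold in shCerS4 cells (8.02% of tested genes), where Atm was lowest at −0.97. Under the same 3 scalings the shSCR count was 2. The median was −0.83 and −0.54. The remaining gene lower past 2-fold between the lines was Nelfe, which encodes a subunit of the pausing factor NELF, at −1.15 [−1.23, −1.07] with Caprin-1 and −0.88 [−0.98, −0.79] with IgG. The highest of the pausing and elongation factors was Tcea1, which encodes the elongation factor TFIIS, at 0.75 and 0.94, and the list's median was −0.22 and −0.13. The remaining lists had no gene past 2-fold between the lines. Their medians with Caprin-1 and IgG were 0.27 and 0.12 for the super elongation complex, 0.12 (just below 0 under median-of-ratios scaling) and 0.22 for the other kinases and cyclins, −0.01 and 0.17 for the polymerase subunits, and 0.25 and 0.12 for the CTD phosphatases.

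The genes most like each member over the 4 libraries were taken from 7610 genes, by distance between log2 CPM values centred on each gene's mean. The nearest gene to Ccnk was Tead1, at a distance of 0.38, followed by Kdm6b (0.40), Mbd6 (0.50), Amotl1 (0.51) and Usf3 (0.51). The shCerS4 libraries that chose Ccnk are among the 4 behind these distances. The other members had closer neighbours. Fam53c lay at 0.01 from Ccnt1, Baz2b at 0.03 from Ccnt2, Smad4 at 0.04 from Cdk13, Sgms2 at 0.04 from Cdk12 and Mrps18a at 0.04 from Cdk9. Among the members themselves the closest pair was Cdk12 with Ccnt2, at 0.08, and the farthest Ccnk with Cdk9, at 3.0.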

How the data were processed

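RNA immunoprecipitation libraries of 4T1 cells were analysed, 1 per group, from polyadenylated RNA with a SMARTER kit per the labels' protocols. Alignment used mm10, STAR and Partek, per the submitters' processing notes, and the read counting method and strand are not given in the sources used here. The deposited table gave CPM values per transcript row by the authors, although it is called raw counts, with 0.0001 added to each row, which was subtracted. Rows were summed per symbol.

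The depth came from the spacing of low CPM values: 19.8 M (IgG) and 27.0 M (Caprin-1) reads in shSCR cells, and 19.7 M and 24.7 M in shCerS4 cells. Below 40 CPM, 79.8% to 81.2% of gene values and 28.9% to 31.4% of row values were whole reads to within 0.05. No count test was run because each group was 1 library. Reads are amplified and carry no molecular identifiers, so intervals cover counting error only. A total of 3 reads was worth 0.111 to 0.152 CPM.

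Log2 ratios were taken after scaling to the library total with 0.5 reads added. Intervals were exact binomial for 2 libraries and normal for differences of ratios. The members and the lists were chosen with earlier results of these data known, and 1 gene of the lists was left out of them afterwards and is not reported here. List genes were named when most abundant in a list or highest or lowest in it; genes of a small count were also named, after their values were seen, as was Setd3. The nearest 5 genes to Ccnk and 3 to the other members were taken, of which the first is printed. Positions and spans are from RefSeq GRCm38.p6, which gave a span for 10277 of the 10283 tested genes. Python 3.11.15, numpy 2.4.6, scipy 1.17.1 and pandas 2.3.3 were used. The calculations were run on simulated counts that held counting error only, which cannot show how replicate libraries would vary. Alternatives were 4 other scalings, 5 added reads, the most abundant row per gene, a filter of 1 CPM or none, and no interval.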

Additional observations from a re-analysis of the deposited data

Results flagged for a closer look

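Ccnk was lower in shCerS4 than in shSCR cells with Caprin-1, at a log2 ratio of −0.27, and higher with IgG, at 0.35. It was flagged because the same contrast ran in opposite directions in the 2 precipitates, with both counting intervals off 0. Ccnk was chosen for its low Caprin-1 over IgG ratio in shCerS4 cells, which favours this pattern, so it is a description. The difference was not tested, since each group was 1 library. Over the 9 alternatives the Caprin-1 value lay between −0.39 and −0.26 and the IgG value between 0.26 and 0.35.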

How the results depend on the processing

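For the 6 genes and 5 comparisons, 270 values were recomputed over 9 alternatives. Of these, 222 stayed within the counting interval of the reported value, 40 left it with the same sign and 8 changed sign. The sign changes were small values or single rows. The Cdk12 ratio of shCerS4 over shSCR with Caprin-1 became −0.0784 under trimmed-mean scaling, −0.10 under median-of-ratios scaling, −0.0800 under upper-quartile scaling, −0.0149 with totals without the 50 most abundant genes and −0.25 for the most abundant row. For Ccnt1 the most abundant row alone gave 0.66 for shCerS4 over shSCR with IgG and −0.14 for the shCerS4 minus shSCR difference in Caprin-1 over IgG, and for Ccnt2 median-of-ratios scaling gave −0.00059 for that difference. The count of genes lower past 2-fold with Caprin-1 was 4 in shSCR cells under every alternative run, and 3 or 4 in shCerS4 cells. The Ccnk ratio lay between −2.10 and −1.92 in shSCR and between −2.71 and −2.56 in shCerS4 cells. Over all genes, trimmed-mean scaling moved the median from −0.13 to 0.03 in shSCR and from −0.11 to 0.05 in shCerS4 cells for Caprin-1 over IgG, and the genes past 2-fold from 174 higher and 1337 lower to 427 and 939 in shSCR cells and from 96 and 825 to 257 and 515 in shCerS4 cells. For that difference, 65 genes were higher and 36 lower past 2-fold, 278 and 174 for the most abundant row per gene, 230 and 177 with a filter of 1 CPM and 457 and 311 without one. No paired analysis was possible because each group held 1 library. No replicate could be left out for the same reason.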
